A study of Mus musculus with 12 samples.

Results

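The clustered protocadherins are cell-surface cadherin-like proteins encoded by a long run of neighbouring genes on mouse chromosome 18, and their transcripts were described here in totipotent potential stem (TPS) cells and extended pluripotent stem (EPS) cells. Members were taken by position and name, as genes on chromosome 18 of the GENCODE M21 annotation (GRCm38) whose symbol begins with Pcdha, Pcdhb or Pcdhg. The rule used no expression value. It gave 58 of the 55401 genes in the count files, 14 in the alpha cluster, 22 in the beta cluster and 22 in the gamma cluster. All lie on the plus strand, with alpha at chr18:36930184-37187661, beta at chr18:37264938-37524479 and gamma at chr18:37661793-37841873. No sequence of a member is shown here.

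Clustered protocadherins give neurons a surface identity. Each neuron uses a small, largely random set of isoforms, like isoforms on facing membranes bind each other, and that matching lets a neuron tell its own branches from those of other cells. In the alpha and gamma clusters each gene model starts with its own large exon, which encodes the whole extracellular part, and is spliced to constant exons shared by the cluster, whereas each beta gene holds its coding sequence in 1 exon. The choice of promoter involves CTCF, cohesin and DNA methylation, and distant enhancers serve the clusters. The C-type genes at the downstream end of the alpha and gamma clusters are known to be used in a less random way than the other genes, and Pcdhgc3 is widely expressed outside neurons.

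The study derived TPS cells in a chemical condition and compared their transcriptomes with those of EPS cells, from which such cells can be converted. Polyadenylated RNA of 3 TPS lines and 3 EPS lines was sequenced with 2 technical replicates per line, in 12 libraries. The labels place both cell types on feeder cells, TPS cells in a medium called VCED and EPS cells in a medium called LCDM. The study's methods call the TPS condition CPEC, after its compounds CD1530 (an agonist of a retinoic acid receptor), VPA (which blocks histone deacetylases), EPZ004777 (which blocks DOT1L) and CHIR-99021 (which blocks GSK3), and name mitomycin-treated mouse embryonic fibroblasts as the feeders of TPS cells. TPS lines could be made from EPS cells, embryonic stem cells or early embryos, and the sources used here do not say which origin each sequenced TPS line had. They also give no strain, sex or passage for a sequenced line, so the p-values below measure the spread between the lines as labelled.

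Library totals ranged from 13676051 to 21821707 counts, and the technical replicates summed to 29877215 to 38466294 counts per line. Between the 2 technical replicates of a line the chi-square per degree of freedom, which is near 1 for counting noise alone, was 2.58 to 3.83 in 4 lines, 9.61 in EPS line 1 and 22.3 in EPS line 3, over genes with at least 10 counts. Levels are given as CPM, a gene's counts relative to the line's total after TMM scaling, and comparisons between genes as CPM per kilobase of exonic sequence annotated to no other gene. Marker genes followed the labels. All 8 genes of a totipotency list, among them Zscan4c and Zfp352, were higher in TPS lines (edgeR adjusted p under the threshold of 0.05), and 5 of 8 pluripotency genes were lower, while the group means of Pou5f1, Nanog and Sox2 ran from 284 to 555 CPM. A list of 16 fibroblast genes summed to 3380 to 6030 CPM in TPS lines and 322 to 1350 CPM in EPS lines. In whole-culture RNA of this kind, fewer cells of a type and less RNA per cell cannot be told apart.

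Clustered protocadherin transcripts were sparse, and most of them came from the gamma cluster. All 58 members together reached 57.3, 37.5 and 58.5 CPM in TPS lines 1 to 3 and 16.7, 26.2 and 32.3 CPM in EPS lines 1 to 3. Every TPS line was above every EPS line, and the mean was 51.1 ± 11.8 CPM in TPS and 25.1 ± 7.87 CPM in EPS lines (SD, n = 3 lines each), a ratio of 2.04. The gamma cluster held 88.0% ± 1.84 of these counts in TPS and 90.9% ± 1.98 in EPS lines (SD, n = 3). The beta cluster held 10.2% ± 2.17 and 7.63% ± 2.22, and the alpha cluster 1.84% ± 0.408 and 1.47% ± 0.268. Of the 58 members, 52 had a count in some library. The 6 without any were Pcdha4, Pcdha8, Pcdhac1, Pcdhb12, Pcdhga10 and the gene ENSMUSG00000102206, one of 2 that carry the symbol Pcdha11.

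Detection followed the clusters. At 10 counts or more, 21 gamma genes were detected in TPS line 1 and 19 in each of the other TPS lines, against 11, 16 and 19 in EPS lines 1 to 3. Of the 22 beta genes, 5, 2 and 7 reached 10 counts in TPS lines and 0, 3 and 3 in EPS lines. Of the 14 alpha genes, 2, 1 and 2 did so in TPS lines and 0 in each EPS line. EPS line 1 was the lowest of all lines in the sum of each cluster.

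**Figure D1:**
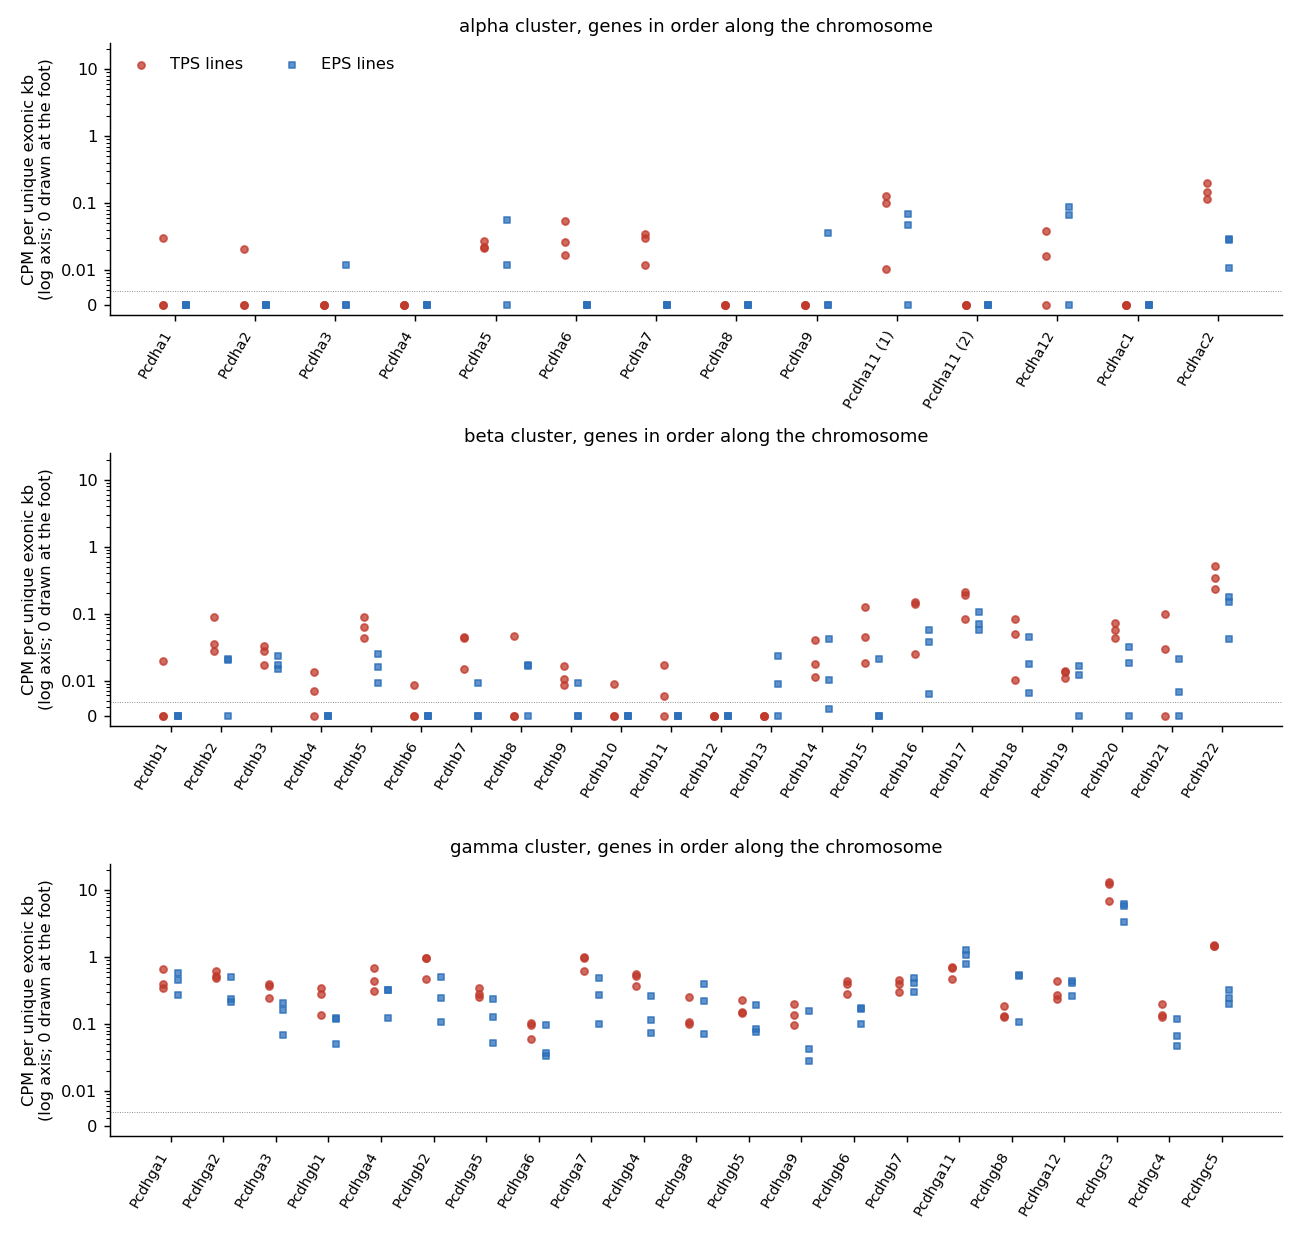
Level of each member in CPM per kilobase of its unique exonic sequence (vertical log axis, with a value of 0 drawn at the foot), genes in chromosomal order, 1 point per line, circles for TPS and squares for EPS lines. Pcdhga10 is left out because it has no exonic base of its own. Pcdhgc3 stands above all others in both groups, and most alpha and beta genes lie below 0.1.

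Per unique kilobase, Pcdhgc3 was the most abundant member in both groups, at 10.7 ± 3.44 CPM per kilobase in TPS and 5.12 ± 1.57 in EPS lines (SD, n = 3). The next places differed. Pcdhgc5 was in place 2 in TPS lines at 1.48 ± 0.0297 CPM per kilobase and in place 10 in EPS lines at 0.258 ± 0.0650. Pcdhga11 was in place 2 in EPS lines at 1.05 ± 0.256 and in place 5 in TPS lines at 0.620 ± 0.124, a place that rests on the length used, since per full exonic length it was in place 2 in EPS and 12 in TPS lines. In places 3 and 4 in TPS lines, Pcdhga7 at 0.862 ± 0.205 and Pcdhgb2 at 0.810 ± 0.288 CPM per kilobase were closer to each other than their spread. The highest beta gene, Pcdhb22, had 0.358 ± 0.139 CPM per kilobase in TPS and 0.124 ± 0.0721 in EPS lines, and Pcdhac2, the highest alpha gene in TPS lines and over all lines, had 0.153 ± 0.0409 in TPS and 0.0227 ± 0.0103 in EPS lines. In EPS lines the means of Pcdha12 and of the Pcdha11 gene ENSMUSG00000007440, at 0.0516 ± 0.0459 and 0.0385 ± 0.0350, were above it by less than their spread.

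Reads from part of these exons fit more than 1 gene model. Gene models of the alpha and gamma clusters overlap in their constant exons, and overlapping, antisense or read-through models cover other parts, so a read there does not name 1 gene, and how the authors counted such reads is not given in the sources used here. Pcdhga10, whose exons are wholly covered by other models, including the antisense-strand gene Gm26672, had 0 counts in every library. Of the windows of 100 bases (the read length) in the first exon of Pcdhgc3, 44.5% also lie in the antisense gene BC037039, 12.6% of those of Pcdhgc5 lie in Gm38182, and 50.6% of those of Pcdhga11 lie in Gm26672. In Pcdha4, ENSMUSG00000102206 and Pcdhb12, which also had no count, 85.7%, 74.0% and 62.3% of these windows lie in genes that are no members. Whether their 0 counts reflect how reads were assigned was not tested. BC037039 had 1, 2 and 6 counts in TPS lines and 7, 6 and 6 in EPS lines, and Gm38182 had 0 in all. No step of the library protocol marks strand, so reads of a member and of its antisense neighbour cannot be told apart. In 34 members, 100-base windows of the first exon also stood in another member. The largest share was 37.4%, in Pcdhga4, and it was 9.82% in Pcdhgb2, 9.69% in Pcdhgb1, 7.73% in Pcdhb21 and 5.47% in Pcdhb22.

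TPS lines were compared with EPS lines gene by gene to ask which members differ between the cell types. Over all 17468 tested genes, edgeR called 2509 higher in TPS lines, which is 14.4%, and 1282 lower, which is 7.34%. Of the 58 members, 24 passed the filter on low counts, namely 1 alpha, 3 beta and 20 gamma genes, and 2 of these 24 were called higher, which is 8.33% and below the share over all genes. The 2 were the C-type genes Pcdhac2 and Pcdhgc5. Pcdhac2 passed the filter only through the TPS lines, where it is high, since no EPS line had more than 3 counts of it, so its place among the called members is no support for a pattern by type. None was called lower by edgeR, DESeq2 or limma-voom, and at an unadjusted p under 0.05 in edgeR 10 of the 24 were higher and 0 lower. The tested members lay between 0.267 and 14.4 CPM on average, and among the 8612 tested genes in this range 20.3% were called higher and 3.5% lower. A member that is low in both groups could not pass the filter, so the 24 do not stand for all 58.

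Among the 24 tested members, 19 had a positive log2 fold change, and the median was 1.07, beside 0.319 over all tested genes in the same range of CPM and -0.00376 over all tested genes. Of the 24, only Pcdhga1, Pcdhga2, Pcdhgb5, Pcdhgb7, Pcdhga11, Pcdhga12, Pcdhgc3 and Pcdhgc5 had at least 10 counts in every EPS line. The other tested members had under 10 counts in some EPS line and needed TPS lines to pass the filter. Pcdhac2, Pcdhb22, Pcdhga7, Pcdhgb4 and Pcdhgb6 are among these. The median and the tallies of direction in this paragraph are therefore no support for a direction of the members as a set. Every TPS line was above every EPS line in 11 of the 24, Pcdhac2 among them, beside 23.5% of all tested genes. Every TPS line was below every EPS line in 1, Pcdhga11, beside 19.1% of all tested genes. DESeq2 tested 37 members and called 6 higher, Pcdhac2, Pcdhgc5, Pcdhgc3, Pcdhgb4, Pcdhga7 and Pcdhb22, which is 16.2% of the 37, beside 16% of the 21582 genes that DESeq2 tested. The number of called members thus depends on the tool, and the share called was close to that over all genes with DESeq2 and below it with edgeR.

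**Figure D2:**
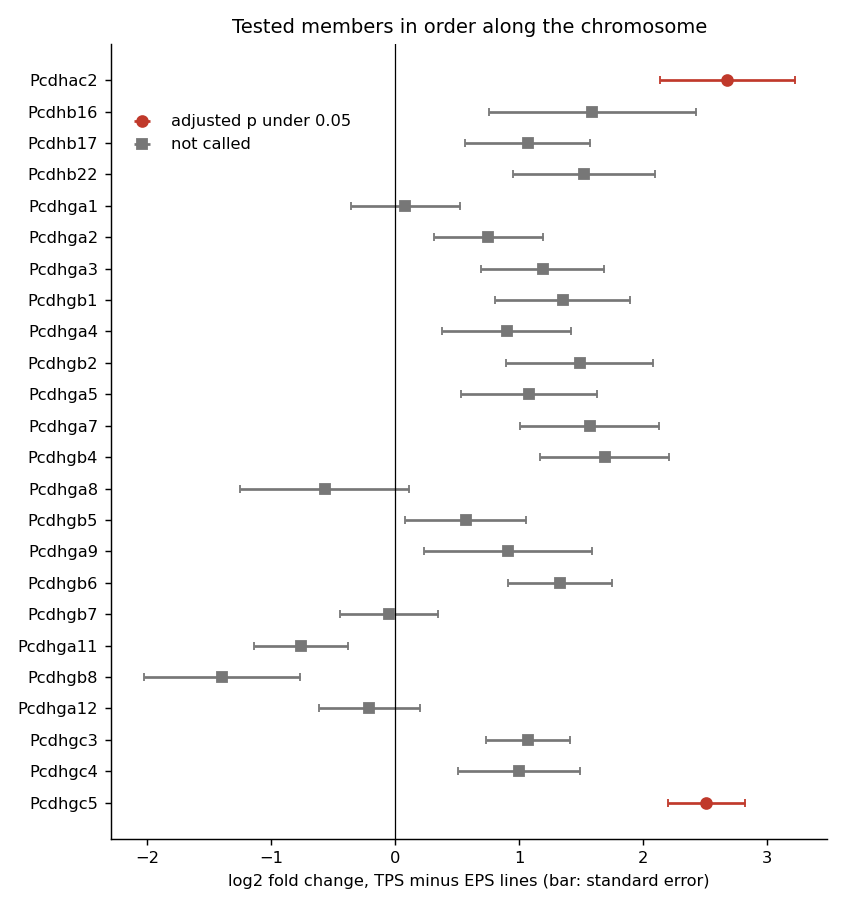
Log2 fold change between TPS and EPS lines (horizontal axis, positive where TPS lines are higher) of the 24 tested members in chromosomal order, with bars of 1 standard error from edgeR. Circles mark the 2 called members, Pcdhac2 and Pcdhgc5, at 2.68 and 2.51, and squares the members not called, which run from -1.40 to 1.69.

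The alpha cluster was close to silent in both cell types. Its 14 genes summed to 41, 33 and 27 counts in TPS lines and 9, 11 and 16 counts in EPS lines. In CPM this was 0.911 ± 0.0966 in TPS and 0.357 ± 0.0859 in EPS lines (SD, n = 3), and every TPS line was above every EPS line. Pcdhac2, the last variable gene of the cluster (chr18:37143503-37187657), carried much of this difference. It had 18, 23 and 11 counts in TPS lines and 1, 3 and 3 counts in EPS lines, so the groups did not overlap. The ratio of its scaled counts was 6.73, with an exact 95% interval of 3.04 to 17.6 that covers counting error only, since several reads can stem from 1 molecule. Its log2 fold change was 2.68 (standard error, SE, of 0.545, edgeR adjusted p = 0.0144).

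The other C-type gene of the cluster, Pcdhac1, was at 0 in all libraries, and a count of 0 allows up to 0.219 CPM (3 counts) in the library where 3 counts weigh most. The 12 alternate genes of the alpha cluster had 23, 10 and 16 counts in TPS lines and 8, 8 and 13 in EPS lines, with overlapping CPM of 0.447 ± 0.166 and 0.289 ± 0.0714 (SD, n = 3), and none passed the filter. Pcdha1, the first gene, had 3 counts in TPS line 1 and 0 elsewhere. Over all 6 lines, the highest alternate genes per unique kilobase were ENSMUSG00000007440, the other gene of symbol Pcdha11, with 10, 1 and 10 counts in TPS and 0, 4 and 6 in EPS lines, and Pcdha12, with 3, 0 and 1 in TPS and 4, 0 and 6 in EPS lines. Both overlapped between the groups. Pcdha6 had 2, 4 and 1 counts and Pcdha7 had 3, 1 and 2 counts in TPS lines, and both had 0 in every EPS line. These counts are at or near the floor and no fold is given.

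The beta cluster was low, and its groups overlapped in the sum. The 22 beta genes reached 6.76, 2.90 and 6.44 CPM in TPS lines and 0.848, 2.26 and 2.96 CPM in EPS lines, with means of 5.37 ± 2.14 and 2.02 ± 1.08 (SD, n = 3). TPS line 2 lay just below EPS line 3. Of the 3 tested beta genes, edgeR called 0, although 1 had an unadjusted p under 0.05. DESeq2 called 1 and limma-voom 0. The one was Pcdhb22, the most downstream beta gene, with 125, 55 and 65 counts in TPS and 8, 31 and 39 in EPS lines. No TPS line overlapped an EPS line, and its log2 fold change was 1.52 (SE 0.573, edgeR adjusted p = 0.0956, DESeq2 adjusted p = 0.0379). With 8 counts in EPS line 1, Pcdhb22 needed TPS lines to pass the filter.

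Pcdhb16 and Pcdhb17, which follow in level per kilobase, overlapped between the groups. Pcdhb16 had 31, 5 and 23 counts in TPS and 1, 10 and 7 in EPS lines, and Pcdhb17 had 36, 15 and 31 in TPS and 8, 11 and 17 in EPS lines. Their log2 fold changes were 1.59 (SE 0.836) and 1.07 (SE 0.504). At the upstream end, Pcdhb1 had 2 counts in TPS line 1 and 0 in the other lines. Of the genes from Pcdhb1 to Pcdhb13, Pcdhb5 alone reached 10 counts in a line, with 9, 6 and 10 counts in TPS and 1, 3 and 2 in EPS lines.

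**Figure D3:**
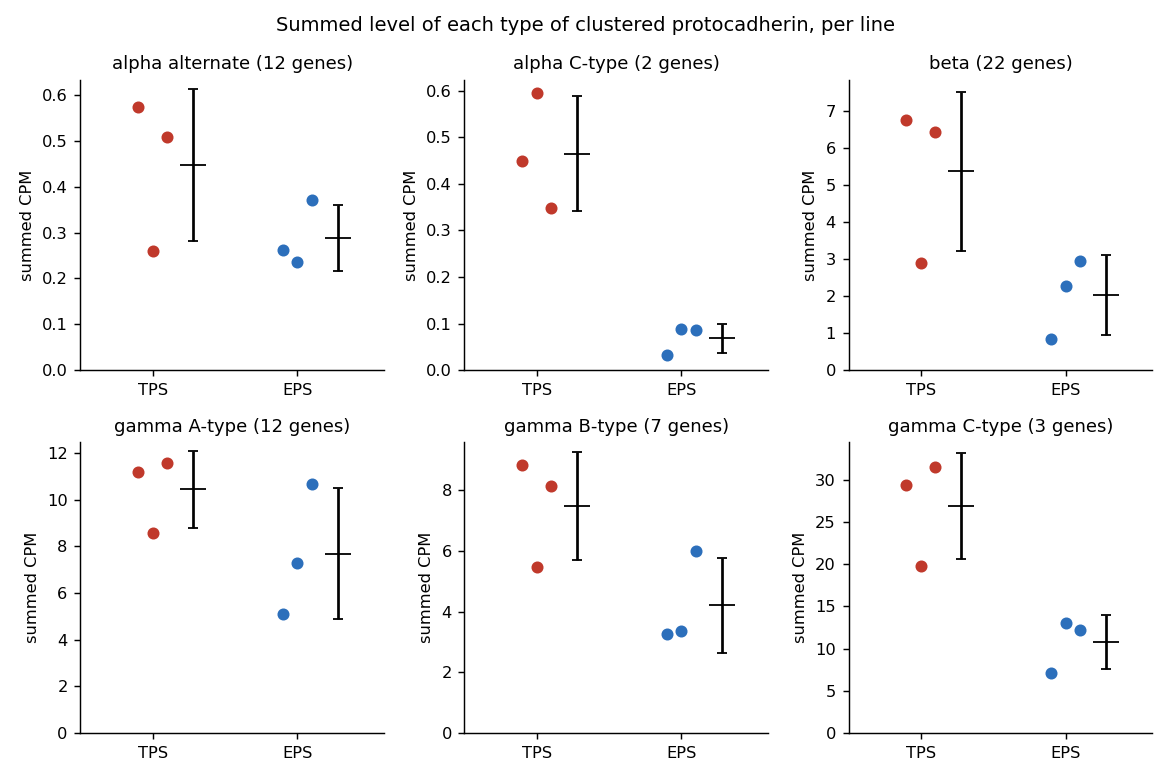
Summed CPM of the members of each type (vertical axes from 0, each panel on its own scale), 1 point per line, with the mean and SD of 3 lines beside the points. TPS and EPS lines are apart in the alpha C-type and gamma C-type panels and overlap in the alpha alternate, beta, gamma A-type and gamma B-type panels.

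The gamma cluster reached 49.5, 33.8 and 51.2 CPM in TPS lines and 15.5, 23.6 and 28.9 CPM in EPS lines, and every TPS line was above every EPS line. The C-type genes accounted for most of the gap. Their sum was 26.9 ± 6.25 CPM in TPS and 10.8 ± 3.18 CPM in EPS lines (SD, n = 3), a ratio of 2.49, and the groups did not overlap. The 12 A-type genes had 10.5 ± 1.65 and 7.68 ± 2.80 CPM, a ratio of 1.36, and the 7 B-type genes 7.47 ± 1.78 and 4.21 ± 1.56 CPM, a ratio of 1.78, and in both types the groups overlapped. The differences between types were not tested.

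Pcdhgc5 (ENSMUSG00000102543.5, chr18:37819513-37841873), the last variable gene of the cluster, had the largest log2 fold change among the tested gamma genes. It had 273, 258 and 219 counts in TPS lines and 28, 39 and 53 counts in EPS lines, so the lowest TPS line was well above the highest EPS line. In CPM it stood at 6.81, 6.68 and 6.95 in TPS lines, which hardly differed from each other, and at 0.914, 1.15 and 1.51 in EPS lines. Its log2 fold change was 2.51 (SE 0.310, edgeR adjusted p = 0.0032), which is 5.71-fold. It was called in each of 17 alternatives, with edgeR adjusted p of 0.00859 to 0.0163 when 1 line was left out. The 2 libraries of EPS line 1 were unequal for this gene, with 4 and 24 counts.

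Pcdhgc3, the most abundant member, missed the threshold narrowly. It had 887, 478 and 758 counts in TPS and 186, 389 and 368 counts in EPS lines, so every TPS line was above every EPS line, with TPS line 2 closest to the EPS lines. Its log2 fold change was 1.07 (SE 0.337, edgeR adjusted p = 0.0591). DESeq2 gave an adjusted p of 0.0151, and without TPS line 2 the edgeR adjusted p was 0.0327, the lowest over the 6 fits that left out a line, where it ranged up to 0.175. Pcdhgc4 was far lower, with 19, 27 and 14 counts in TPS and 5, 14 and 8 in EPS lines. The highest EPS line and the lowest TPS line of Pcdhgc4 both had 14 counts, though not the same CPM, and its log2 fold change was 1.00 (SE 0.490, edgeR adjusted p = 0.179).

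None of the 17 tested A- and B-type gamma genes was called by edgeR, and their log2 fold changes ran from -1.40 to 1.69. The 2 nearest to the threshold were B-type. Pcdhgb4 had 81, 52 and 59 counts in TPS and 8, 14 and 33 in EPS lines, with no overlap and a log2 fold change of 1.69 (SE 0.523, edgeR adjusted p = 0.0553). Pcdhgb6 had 41, 28 and 35 counts in TPS and 8, 15 and 15 in EPS lines, again with no overlap, and a log2 fold change of 1.33 (SE 0.416, edgeR adjusted p = 0.0572). Pcdhga7 followed, with 102, 62 and 78 counts in TPS and 8, 24 and 44 in EPS lines (log2 fold change 1.57, edgeR adjusted p = 0.0833). Each of these genes had 8 counts in EPS line 1 and needed TPS lines to pass the filter. DESeq2 called Pcdhgb4 and Pcdhga7 but gave Pcdhgb6 an adjusted p of 0.0755, and limma-voom called Pcdhgb4 (adjusted p = 0.0392). Without EPS line 3, edgeR called Pcdhgb4 at a log2 fold change of 2.35 (adjusted p = 0.0281) and Pcdhga7 at 2.16 (adjusted p = 0.0485). With technical replicate 2 alone it called Pcdhgb6 (adjusted p = 0.0208).

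The 5 tested members with a negative log2 fold change were all gamma genes, and 4 of them, Pcdhgb7, Pcdhga11, Pcdhgb8 and Pcdhga12, are the last A- and B-type genes before the C-type genes. The other was Pcdhga8, at -0.57. Of the 4, Pcdhgb7, Pcdhga11 and Pcdhga12 have 27.1%, 50.6% and 5.31% of their first-exon windows also in the antisense-strand gene Gm26672. Pcdhgb8 has none there. Whether this overlap bears on the values was not tested. Pcdhga11 had 24, 34 and 27 counts in TPS and 30, 55 and 48 in EPS lines, and in CPM every TPS line was below every EPS line (log2 fold change -0.76, SE 0.383, edgeR adjusted p = 0.189). Pcdhgb8, annotated as a polymorphic pseudogene, had 13, 18 and 10 counts in TPS and 42, 9 and 46 in EPS lines. EPS line 2 stood apart for this gene and its groups overlapped (log2 fold change -1.40, SE 0.631, edgeR adjusted p = 0.15, and 0.0423 without EPS line 2). Pcdhgb7 and Pcdhga12 were at -0.05 and -0.21. The sign turned in Pcdhgb7 in 4 alternatives, to at most 0.09, namely without composition factors, with technical replicate 1 alone, without TPS line 2 and without EPS line 2. It also turned in Pcdhga8 without EPS line 3, to 0.08, and in Pcdhga12 with technical replicate 2 alone, to 0.24. At the upstream end of the cluster, Pcdhga1 had 39, 43 and 59 counts in TPS and 24, 44 and 58 in EPS lines, with overlapping groups and a log2 fold change of 0.08 (SE 0.440, edgeR adjusted p = 0.913).

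Within the gamma cluster the make-up of the counts differed, a measure that does not use the scaling between libraries. Pcdhgc5 made up 13.8%, 19.8% and 13.6% of the gamma counts in TPS lines and 5.88%, 4.86% and 5.22% in EPS lines, with means of 15.7% ± 3.52 and 5.32% ± 0.520 (SD, n = 3). Pcdhgc3 made up 42.8% ± 5.46 and 41.3% ± 6.38, and its lines overlapped. Shares of Pcdhga1, Pcdhgb7, Pcdhga11 and Pcdhga12 were lower in every TPS line than in every EPS line. The means of Pcdhga11 were 1.83% ± 0.710 in TPS and 5.96% ± 1.10 in EPS lines, and those of Pcdhga12 were 3.01% ± 0.957 and 6.82% ± 0.469. Shares of Pcdhga7, Pcdhgb4 and Pcdhgb6 were higher in every TPS line, by less than 2 percentage points in the means. For each line, Pcdhgc5 had 3.69, 5.86 and 7.06 counts per count of Pcdhga12 in TPS lines 1 to 3 and 0.848, 0.672 and 0.828 in EPS lines 1 to 3. Shares add up to a whole, so a larger share of Pcdhgc5 lowers the summed share of the others. With 3 lines against 3, an exact permutation test of a share cannot go below 0.1, and none was run.

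**Figure D4:**
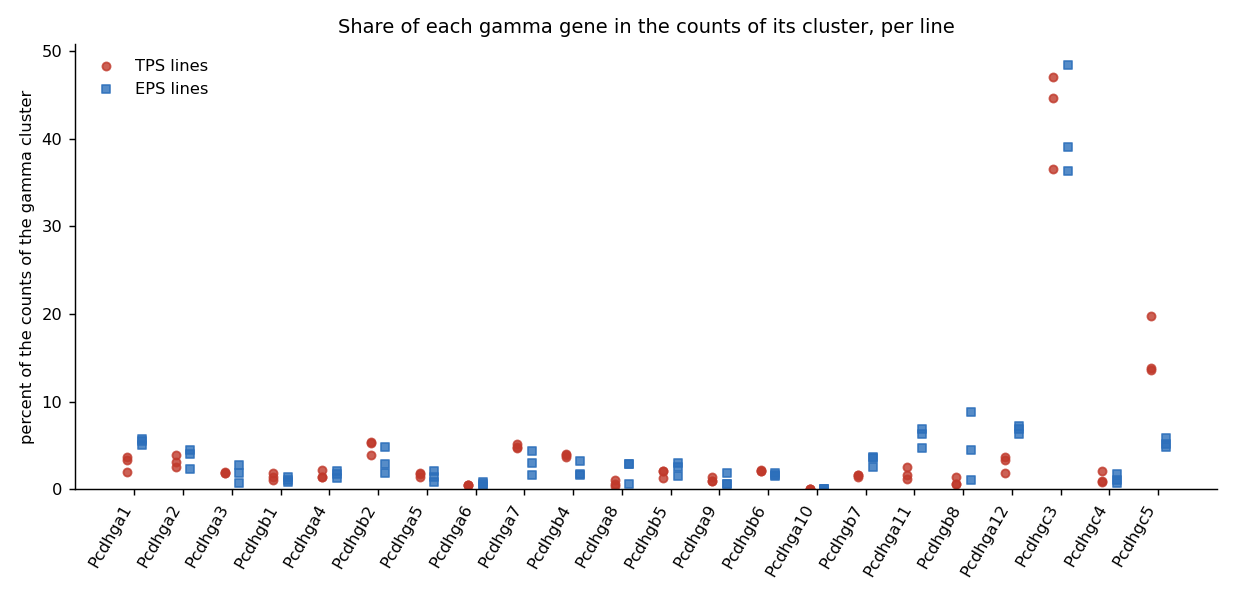
Percent of the gamma cluster's counts that each gamma gene made up (vertical axis from 0), genes in chromosomal order, 1 point per line, circles for TPS and squares for EPS lines. Pcdhgc5 is at 13.6% to 19.8% in TPS lines and 4.86% to 5.88% in EPS lines, while Pcdhgc3 holds the largest share in all 6 lines.

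Set side by side, the sums of the 3 clusters had TPS to EPS ratios of 2.55 for alpha, 2.65 for beta and 1.98 for gamma. As mean differences of log2 CPM these were 1.37, 1.49 and 1.00, with pooled SDs between lines of 0.257, 0.828 and 0.399. The alpha value was 2.46 with technical replicate 1 alone and 0.93 with technical replicate 2 alone, so its place among the clusters depended on the replicate used. With technical replicate 1 alone, beta was at 1.13 and gamma at 0.88. With the technical replicates summed, the clusters differed from each other by less than the spread of the beta sum. Differences between clusters were not tested. With the C-type genes left out, the alpha difference was 0.58 and the gamma difference 0.63.

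Fibroblast genes were mostly higher in TPS lines. Of the 16 fibroblast genes, 15 were tested, and edgeR called 10 higher in TPS lines and 0 lower. That is 66.7% and 0% of the 15, beside 14.4% and 7.34% of all tested genes. The median log2 fold change of the 15 was 2.12, and S100a4 was at 0 throughout. Fap, with 0, 2 and 11 counts in EPS lines, needed TPS lines to pass the filter. The summed CPM of the 16 genes was 6030, 3380 and 3480 in TPS lines and 322, 1270 and 1350 in EPS lines. Col1a1, a defining collagen of fibroblasts, had 1830 ± 494 CPM in TPS and 297 ± 190 CPM in EPS lines (SD, n = 3). EPS line 1 was lowest both in this sum and in each protocadherin cluster, and every TPS line was above every EPS line in the fibroblast sum and in the alpha and gamma clusters, though not in the beta cluster. EPS lines 1 to 3 stood in the same order in the fibroblast sum, the protocadherin sum and Pcdhgc5. Among TPS lines, line 2 was lowest in both sums, while line 3 had the highest protocadherin sum and line 1 the highest fibroblast sum. Pcdhgc5 stayed between 6.68 and 6.95 CPM in the TPS lines while the fibroblast sum ran from 3380 to 6030. The part of feeder RNA in the protocadherin differences was not tested.

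**Figure D5:**
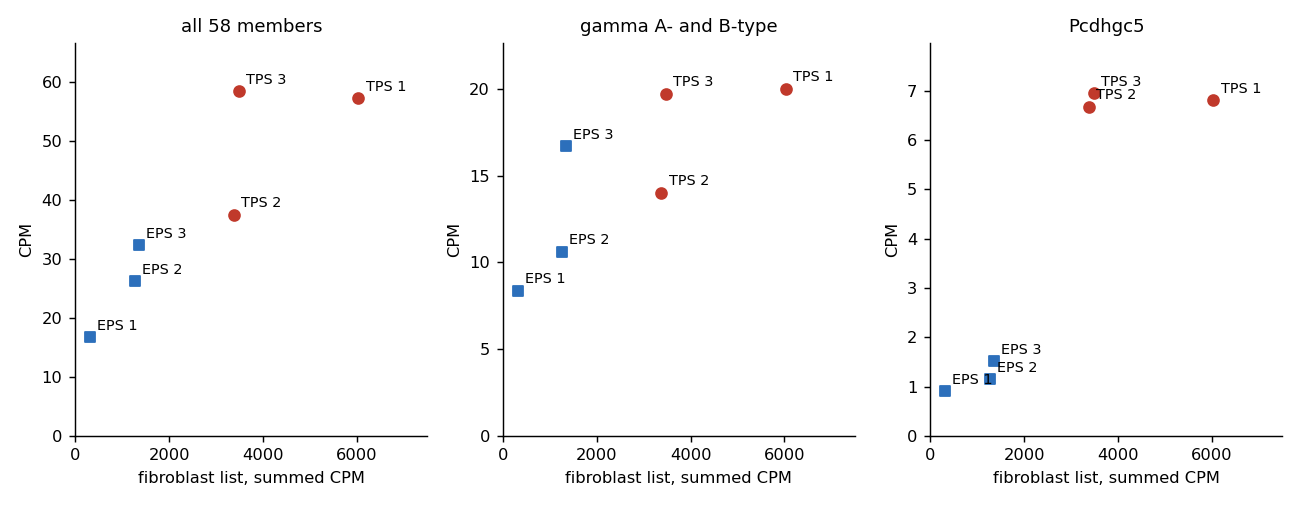
Summed CPM of 16 fibroblast genes (horizontal axis) against CPM of all 58 members, of the gamma A- and B-type genes and of Pcdhgc5 (vertical axes from 0), 1 labelled point per line, circles for TPS and squares for EPS lines. EPS line 1 is lowest on both axes of each panel, and Pcdhgc5 lies between 6.68 and 6.95 CPM in the TPS lines.

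Neural genes went both ways. Of 16 neural genes, 12 were tested, and 1 was called higher and 3 lower in TPS lines by edgeR, which is 8.33% and 25% of the 12, beside 14.4% and 7.34% of all tested genes. Their summed CPM was 192, 214 and 187 in TPS and 383, 411 and 321 in EPS lines. Stmn2 and Olig2, singled out after their values were seen, made up 89.0, 118 and 105 CPM of this in TPS and 322, 324 and 266 in EPS lines, and the other 14 genes summed to 103, 95.9 and 81.6 CPM in TPS and 61.9, 86.7 and 54.7 in EPS lines. The direction of the sum thus rests on these 2 genes. Of the 12 tested, every TPS line was above every EPS line in 3, Pax6, Nes and Tubb3, beside 23.5% of all tested genes, and below in 5, Map2, Neurod1, Snap25, Stmn2 and Olig2, beside 19.1%. Map2 was at -1.15 and Neurod1 at -1.56 on the log2 scale, not called by edgeR but called by DESeq2 (adjusted p = 0.00695 and 0.011). The one called higher was Tubb3, a neuronal tubulin, at a log2 fold change of 1.20 (edgeR adjusted p = 0.0447). Snap25, Stmn2 and Olig2 were lower, and Dcx, a marker of young neurons, had 1 count over all TPS lines and 0 in EPS lines, too few for a comparison.

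Of 32 genes for factors that act on these clusters or on chromatin and DNA methylation, 1 was called higher and 7 lower in TPS lines. That is 3.12% and 21.9%, beside 14.4% and 7.34% of all tested genes. The share called lower varies with level, and was 3.5% between 0.267 and 14.4 CPM, a range below most of the 32. No share was taken at the level of the 32. In 16 of the 32 every TPS line was below every EPS line, beside 19.1% of all tested genes. Ctcf, which binds protocadherin promoters and enhancers, had 120 ± 9.94 CPM in TPS and 133 ± 6.13 CPM in EPS lines (SD, n = 3), with a log2 fold change of -0.15 (edgeR adjusted p = 0.411). Of the cohesin genes, Smc1a was lower at -0.53 (edgeR adjusted p = 0.0362), and Rad21 at -0.11 and Smc3 at -0.18 did not pass, nor did the loader Nipbl and the release factor Wapl, both at -0.41. Smchd1, a chromatin protein known to repress clustered protocadherins, was at -0.07 (edgeR adjusted p = 0.777).

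Among the genes of DNA methylation, Dnmt3a, a de novo methyltransferase, was the one called higher. It had 237, 216 and 513 CPM in TPS lines and 71.5, 61.9 and 93.4 CPM in EPS lines, with no overlap and a log2 fold change of 2.09 (SE 0.351, edgeR adjusted p = 0.00785). Dnmt3b, the de novo enzyme known to methylate protocadherin promoters, had 283 ± 71.5 and 242 ± 68.8 CPM (SD, n = 3) and was not called (log2 fold change 0.22, edgeR adjusted p = 0.572). Tet1, which oxidises methylated cytosine, fell by 1.16 on the log2 scale, from 496 ± 91.3 CPM in EPS to 222 ± 37.6 CPM in TPS lines (edgeR adjusted p = 0.00711). Uhrf1 and Dnmt3l, cofactors of methylation, were lower as well, at -0.51 and -0.88, and so were Rest at -0.75 and the Polycomb genes Eed at -0.71 and Ezh2 at -0.51. Dnmt1 at -0.26, Setdb1 at -0.41, Wiz at -0.20 and Hells at 0.09 were not called.

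Of 14 neighbours on chromosome 18, 12 were tested, 2 were called higher and 0 lower by edgeR, and the median log2 fold change was -0.269. The 2 are 16.7% of the 12, close to the 14.4% of all tested genes. In 5 of the 12, Hars2, Taf7, Diaph1, Hdac3 and Rell2, every TPS line was below every EPS line, beside 19.1% of all tested genes. In 2, Arap3 and Pcdh1, every TPS line was above, beside 23.5%, and in 5 the groups overlapped. Taf7, which lies between the beta and gamma clusters, was at -0.24 (edgeR adjusted p = 0.201), Diaph1 and Hdac3 downstream of gamma at -0.43 and -0.30 (edgeR adjusted p = 0.0538 and 0.174). Slc25a2, also between beta and gamma, had 5, 3 and 10 counts in TPS and 6, 6 and 10 in EPS lines and was not tested. The 2 called were Arap3 (log2 fold change 3.33, edgeR adjusted p = 0.00995) and Pcdh1 (1.99, edgeR adjusted p = 0.0467), and in both TPS line 2 was the highest, with 1049 and 1391 counts.

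Non-clustered protocadherins, single genes outside these clusters that code for related adhesion proteins, included several called genes. Of 12, 7 were tested and 5 were called higher, Pcdh1, Pcdh7, Pcdh8, Pcdh18 and Pcdh19, beside 14.4% of all tested genes, and the median log2 fold change of the 7 was 2.57. Every one of the 7 had all TPS lines above all EPS lines, beside 23.5% of all tested genes. Pcdh8, Pcdh9, Pcdh17 and Pcdh18 had under 10 counts in some EPS line and needed TPS lines to pass the filter. The median and the tallies of the 7 are therefore no support for a direction of these genes as a set. Pcdh8 had 96, 38 and 179 counts in TPS and 10, 14 and 6 in EPS lines (log2 fold change 3.30, edgeR adjusted p = 0.0178). Pcdh19, linked to epilepsy in humans, had 425, 207 and 307 counts in TPS and 39, 61 and 131 in EPS lines (log2 fold change 1.92, edgeR adjusted p = 0.0271). Pcdh9 and Pcdh17, at 2.59 and 2.57, had edgeR adjusted p of 0.057 and 0.065, but DESeq2 called both (adjusted p = 0.00753 and 0.00798). EPS line 1, the line with the lowest fibroblast sum, was the lowest EPS line in all of the 7 but Pcdh8. It had 1, 0 and 5 counts of Pcdh9, Pcdh17 and Pcdh18. TPS line 2, the lowest TPS line in that sum, was the highest TPS line in Pcdh1, Pcdh17 and Pcdh18. In Pcdh7, Pcdh8, Pcdh9 and Pcdh19 it was the lowest TPS line. The part of feeder RNA in these values was not tested either.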

How the data were processed

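The authors mapped paired-end reads to mm10 (GRCm38.p6) and deposited a count per gene and library, not normalized. The submitters' processing notes name fastp 0.19.7 and STAR 2.7.3a. The counting tool, its annotation, its use of strand and its treatment of reads with several matches are not given in the sources used here. Of 55401 identifiers, 55141 matched GENCODE M21 without the version. Counts of the 2 technical replicates were summed per line, and the main test, on 3 TPS against 3 EPS lines, was the quasi-likelihood F test of edgeR (version 4.0.16, R version 4.3.3, TMM factors, filterByExpr with its minimum count of 10 and total of 15, Benjamini-Hochberg adjustment over all 17468 tested genes, threshold 0.05). The script was tested on simulated data. Alternatives were DESeq2 1.42.0, limma-voom (limma 3.58.1), other factors, filters and thresholds, single technical replicates, the 12 libraries as separate samples, the line number as a block and leaving out each line.

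Levels per kilobase divided a gene's CPM by its exonic bases annotated to no other gene on either strand. Genes were named by a rule: in each cluster, up to 5 called members with the largest change and a mean of at least 10 counts, the 3 highest per unique kilobase, the first gene, all C-type genes, the tested members next to the threshold, set genes of the regulator and neighbour lists, called genes of other lists, and any group of 5 or fewer that is counted. Pcdhga7, Pcdhgb2, Pcdha6, Pcdha7 and the members with a negative change were chosen after their values were seen. The members and lists were chosen with earlier results of these data known. Promoters and proteins of the members were not analysed here.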

Additional observations from a re-analysis of the deposited data

How the results depend on the processing

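Pcdhgc5 was called higher in each of the 17 alternatives fitted and Pcdhac2 in each of the 13 in which it passed the filter, with edgeR adjusted p for Pcdhac2 of 0.0356 to 0.0485 when 1 line was left out. Pcdhac2 could pass the filter on low counts only through the TPS lines, where it is high. Its tally is therefore no support of the kind that the tally of Pcdhgc5 gives. Of the 24 tested members, 20 kept their direction in every alternative in which they were tested, and Pcdhga1, Pcdhga8, Pcdhgb7 and Pcdhga12 did not. Pcdhga1 was at -0.26 without TPS line 3 and -0.19 without EPS line 1, and up to 0.33 when another line was left out. The depth limits the alpha and beta clusters most. Of the 58 members, 34 were too low for the edgeR filter, namely 13 alpha, 19 beta and 2 gamma genes, while DESeq2 tested 37. How reads on shared or overlapped exons were counted is not known, and 3 lines per group limit the precision. Why a count moved was not tested, apart from fewer genes or lines tested.

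For gamma members, the number called higher was 1, and it was 4 without composition factors, 3 with no filter on low counts, 2 with at least 1 CPM in 3 lines, 8 with the 12 libraries as separate samples, 2 with either technical replicate alone, 4 by DESeq2, 2 by limma-voom and 1 to 3 when 1 line was left out, 2 of these without TPS line 2, Pcdhgc5 and Pcdhgc3, and 3 without EPS line 3, Pcdhgc5, Pcdhgb4 and Pcdhga7. The number called lower was 0, and 0 to 1 when 1 line was left out, the 1 being Pcdhgb8 without EPS line 2. For beta members it was 0 higher, and 1 with the 12 libraries as separate samples and 1 by DESeq2. For alpha members it was 1 higher, and 0 with at least 1 CPM in 3 lines, with the 12 libraries as separate samples and with either technical replicate alone, since Pcdhac2 then failed the filter, and 0 at a threshold of 0.01.

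Over all genes, 2509 were higher and 1282 lower. With the 12 libraries as separate samples these were 4067 and 3610, at a threshold of 0.01 they were 873 and 258, and leaving out 1 line gave 1617 to 2234 and 493 to 1047. Without composition factors 745 were lower, and the genome-wide median moved to 0.144 on the log2 scale. The line numbers did not pair the samples, as the correlations of same-numbered lines were 0.024, -0.116 and 0.0423. With the line number as a replicate block 1714 genes were higher and 721 lower, and the block changed no call of a member, with Pcdhac2 at edgeR adjusted p = 0.0484 and Pcdhgc5 at 0.0154.

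The alpha difference in summed log2 CPM, 1.37, was 2.46 with technical replicate 1 alone, 0.93 with technical replicate 2 alone and 0.58 without C-type members. Leaving out 1 line gave 1.24 to 1.56 for alpha, 0.95 to 1.89 for beta and 0.75 to 1.20 for gamma. The 22 members at 10 counts or more in every TPS line and the 8 in every EPS line became 30 and 23 at 3 counts or more, and 15 and 7 at 0.5 CPM or more. Of the first 5 members per unique kilobase, 4 were shared with the first 5 per full exonic length and 4 with those per longest transcript. The one lost in both was Pcdhga11, in place 12 and 13 in TPS lines and 2 and 3 in EPS lines by these lengths.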

Other observations

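Of 20 genes for proteins that bind protocadherins or act downstream of them, 19 were tested, with a median log2 fold change of -0.0306. In TPS lines edgeR called 1 higher and 0 lower, which is 5.26% and 0% of the 19, beside 14.4% and 7.34% of all tested genes. In 5 of the 19, Ptk2, Axin1, Cyfip1, Nckap1 and Abi1, every TPS line was below every EPS line, beside 19.1% of all tested genes, in 2, Adam10 and Ctnnb1, every TPS line was above, beside 23.5%, and in 12 the groups overlapped. The one called was Adam10, a membrane protease that cleaves protocadherins, at 64.8 ± 7.69 CPM in TPS and 42.0 ± 5.44 CPM in EPS lines (SD, n = 3), a log2 fold change of 0.63 (edgeR adjusted p = 0.0289).

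Of 8 cadherins outside the protocadherin family, 7 were tested, and 4 were called higher in TPS lines and 0 lower by edgeR, beside 14.4% and 7.34% of all tested genes. Cdh3, or P-cadherin, had 48.5 ± 8.37 CPM in TPS and 18.9 ± 3.16 CPM in EPS lines (SD, n = 3), a log2 fold change of 1.36 (edgeR adjusted p = 0.00512). Cdh11, a cadherin of mesenchymal cells, had 58.8 ± 18.8 and 12.1 ± 8.85 CPM, a log2 fold change of 2.28 (edgeR adjusted p = 0.0364). Cdh2 and Cdh6 were higher at 1.21 and 2.32. Cdh6, and Cdh13, which was not called, had under 10 counts in EPS line 1 and needed TPS lines to pass the filter. Cdh1, or E-cadherin, was at 441 ± 43.5 CPM in TPS and 672 ± 193 CPM in EPS lines and was not called (edgeR adjusted p = 0.0748). Fibroblast genes were higher in the same TPS lines, and their part in these values was not tested.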
